A study of Mus musculus with 89 samples.

Results

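Glucocorticoid-responsive genes of the mouse lung were followed across 18 groups of lung arrays. The 9 genes were Fkbp5, Tsc22d3, Sgk1, Zbtb16, Klf9, Errfi1, Ddit4, Pdk4 and Nr3c1, genes that glucocorticoids induce, together with the gene of the receptor itself. They are 9 of the 17097 genes that the probe sets name, and all 9 were among the 15065 genes tested. A gene stands here as the log2 signal of 1 probe set, the brightest on average over all 89 arrays. Levels of different probe sets are not set against each other.

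Left lung lobes of male mice aged 7-8 weeks gave the RNA, after perfusion of the lungs, and each array is a mixture of all cells of that lobe. The mice were SP-D-/- (a strain without surfactant protein D, the lung collectin encoded by Sftpd), BALB/c, or C57BL/6. Mice were sensitized to the mould Aspergillus fumigatus (Af) by intraperitoneal injection on days 0 and 7, with an intranasal challenge on day 13, or were left without Af. All were then exposed for 2 h to ozone at 3 ppm or to air and killed 12 h later. The Af groups were taken 24 h after challenge with air, 96 h with ozone, and 168 h with air or with ozone. In that order the SP-D-/- groups held 6, 6, 5 and 4 arrays, the BALB/c groups 5, 6, 6 and 4, and the C57BL/6 groups 4, 5, 4 and 6. Ozone alone had 4 SP-D-/-, 2 BALB/c and 6 C57BL/6 arrays, and air alone had 5 SP-D-/-, 5 BALB/c and 6 C57BL/6 arrays. No ozone group at 24 h and no air group at 96 h was analysed here, so Af 24 h and Af 168 h were set against air and Af 96 h against ozone alone. Only replicate numbers tell the arrays of a group apart, so separate animals are not stated, and p-values measure only the spread between these arrays.

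Glucocorticoids bind the receptor encoded by Nr3c1, which is held by heat-shock chaperones in the cytoplasm and moves to the nucleus, where it binds DNA as a dimer and raises or lowers transcription. In the lung, corticosterone and its synthetic relatives restrain inflammation, support the epithelial barrier and act on clock genes. The genes followed here are read in many tissues as a measure of receptor activity, although metabolic and stress signals also reach several of them.

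By role, Nr3c1 encodes the receptor. Fkbp5 (chr17:28398753-28486149) encodes a co-chaperone that lowers the receptor's affinity for hormone, and Tsc22d3 (chrX:140539528-140600522) encodes GILZ, an anti-inflammatory leucine zipper protein. The transcription factors are Zbtb16 (chr9:48651797-48836225), which encodes PLZF, and Klf9 (chr19:23141226-23168129), a Kruppel-like factor. Signalling and metabolic members are Sgk1 (chr10:21882184-21999903), a kinase that acts on epithelial sodium transport, Errfi1 (chr4:150853796-150868889), an inhibitor of the EGF receptor, Ddit4 (chr10:59949675-59951770), an inhibitor of mTORC1, and Pdk4 (chr6:5483351-5496278), a kinase that restrains the use of glucose by mitochondria. Coordinates are those of RefSeq on GRCm38.p6.

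Sequence upstream of the transcript starts was searched for the letters that the receptor is known to prefer. The promoter table held windows of 250 bases before to 50 bases after the start for 7 of the 9 members, 15 windows in all, and Zbtb16 and Nr3c1 had none. The motifs searched for the receptor were the hexamer AGAACA, which reads TGTTCT on the other strand, and the palindrome in which AGAACA, any 3 bases and TGTTCT follow each other. The E-box CACGTG, which clock proteins bind, was searched as well. Both strands were searched. The palindrome contains 2 hexamers, so these searches overlap. Of all 32851 promoter windows of this length, 3 held the palindrome (0.00913%), 19% held a hexamer and 7.15% an E-box. The 15 windows of the members included 4 with a hexamer and 2 with an E-box. The palindrome was in 1 of the 6 windows of Sgk1, with its hexamers at positions -189 and -180, counted from the transcript start. Another hexamer in that window lay at -242 and overlapped an E-box at -246. Of the 3 Tsc22d3 windows, 1 held a hexamer, at -185, and the Fkbp5 window held an E-box at -169. The Klf9 window held none of these letters.
Shown 5′ to 3′ are the 250 bases before the start, with hexamers and E-boxes in capitals, since these 4 genes carry most of the changes below and differ in the motifs present: Sgk1 at chr10:21993640-21993889 (plus strand), Tsc22d3 at chrX:140600523-140600772 (minus strand), Fkbp5 at chr17:28486150-28486399 (minus strand) and Klf9 at chr19:23140976-23141225 (plus strand), all from RefSeq on GRCm38.p6.
Sgk1: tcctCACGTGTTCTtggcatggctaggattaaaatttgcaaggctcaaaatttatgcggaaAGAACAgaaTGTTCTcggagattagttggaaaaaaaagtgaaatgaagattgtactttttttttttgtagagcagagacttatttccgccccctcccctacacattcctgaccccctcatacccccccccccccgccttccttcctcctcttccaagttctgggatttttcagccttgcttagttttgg
Tsc22d3: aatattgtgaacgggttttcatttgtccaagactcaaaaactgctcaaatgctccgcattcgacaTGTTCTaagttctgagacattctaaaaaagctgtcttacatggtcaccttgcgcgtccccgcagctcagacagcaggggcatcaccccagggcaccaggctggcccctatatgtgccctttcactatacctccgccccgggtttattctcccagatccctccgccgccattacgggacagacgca
Fkbp5: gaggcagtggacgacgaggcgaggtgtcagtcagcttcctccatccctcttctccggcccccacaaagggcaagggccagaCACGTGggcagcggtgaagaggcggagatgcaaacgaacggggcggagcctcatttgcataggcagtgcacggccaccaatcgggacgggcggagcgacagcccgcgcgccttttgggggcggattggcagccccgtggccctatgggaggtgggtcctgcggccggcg
Klf9: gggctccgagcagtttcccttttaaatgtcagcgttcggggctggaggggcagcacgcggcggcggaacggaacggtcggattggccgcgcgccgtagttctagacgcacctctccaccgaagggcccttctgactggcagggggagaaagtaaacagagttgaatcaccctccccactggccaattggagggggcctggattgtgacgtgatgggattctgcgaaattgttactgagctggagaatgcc
A match describes the letters of these windows and shows no binding.

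The arrays differed in technical measures that bear on the members. The spike level, the mean of 18 hybridization control probe sets, ranged from 9.68 to 12.3, and the actin difference, by which the beta-actin control reads higher at its 3′ than at its 5′ end, ranged from 0.87 to 4.64 (median 2.42), all on the log2 scale. A larger actin difference means less signal toward the 5′ end of that transcript. The number of arrays per group limits the precision. Strain labels were checked against Sftpd and 77 genes that separated BALB/c from C57BL/6 in air. Sftpd read 4.42 to 7.76 on the SP-D-/- arrays that passed and 9.20 to 11.24 on the BALB/c and C57BL/6 arrays that passed. The check went against the label on 5 arrays, namely SP-D-/- Af 96 h with ozone replicate 1, BALB/c Af 24 h replicates 4 and 5, BALB/c Af 168 h with ozone replicate 6 and C57BL/6 Af 96 h with ozone replicate 1. BALB/c Af 24 h replicate 5 was among them through Sftpd alone (7.68), since its 77 genes lay on the BALB/c side. It also had the lowest alveolar type 2 (8.81) and club cell (6.13) marker means of its group. The 5 arrays were kept under their labels, and results that rest on them are given without them too.

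Over the 18 groups, most of the 9 genes were highest in lungs that had not met Af. Tsc22d3, Sgk1, Zbtb16, Klf9, Ddit4 and Nr3c1 had their highest mean in BALB/c air lungs, and Errfi1 had it in BALB/c ozone lungs. Their lowest means were all in Af groups. Nr3c1 averaged 5.77 ± 1.21 in C57BL/6 Af 96 h lungs with ozone (SD, n = 5), its lowest group, and 8.95 ± 0.31 in BALB/c air lungs (SD, n = 5), its highest. Zbtb16 had the widest span of group means, 3.29 on the log2 scale, with BALB/c Af 168 h lungs at the bottom. Fkbp5 had a span of only 1.03, and both ends were C57BL/6 groups without Af, ozone at the top and air at the bottom. Pdk4 was highest in SP-D-/- Af 168 h lungs with ozone, at 9.85 ± 0.87 (SD, n = 4), and lowest in SP-D-/- Af 96 h lungs with ozone, at 7.71 ± 0.35 (SD, n = 6). When the 18 group means of a gene were put in order, the 17 neighbouring pairs all overlapped in their arrays, apart from 1 pair for Nr3c1.

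**Figure D1:**
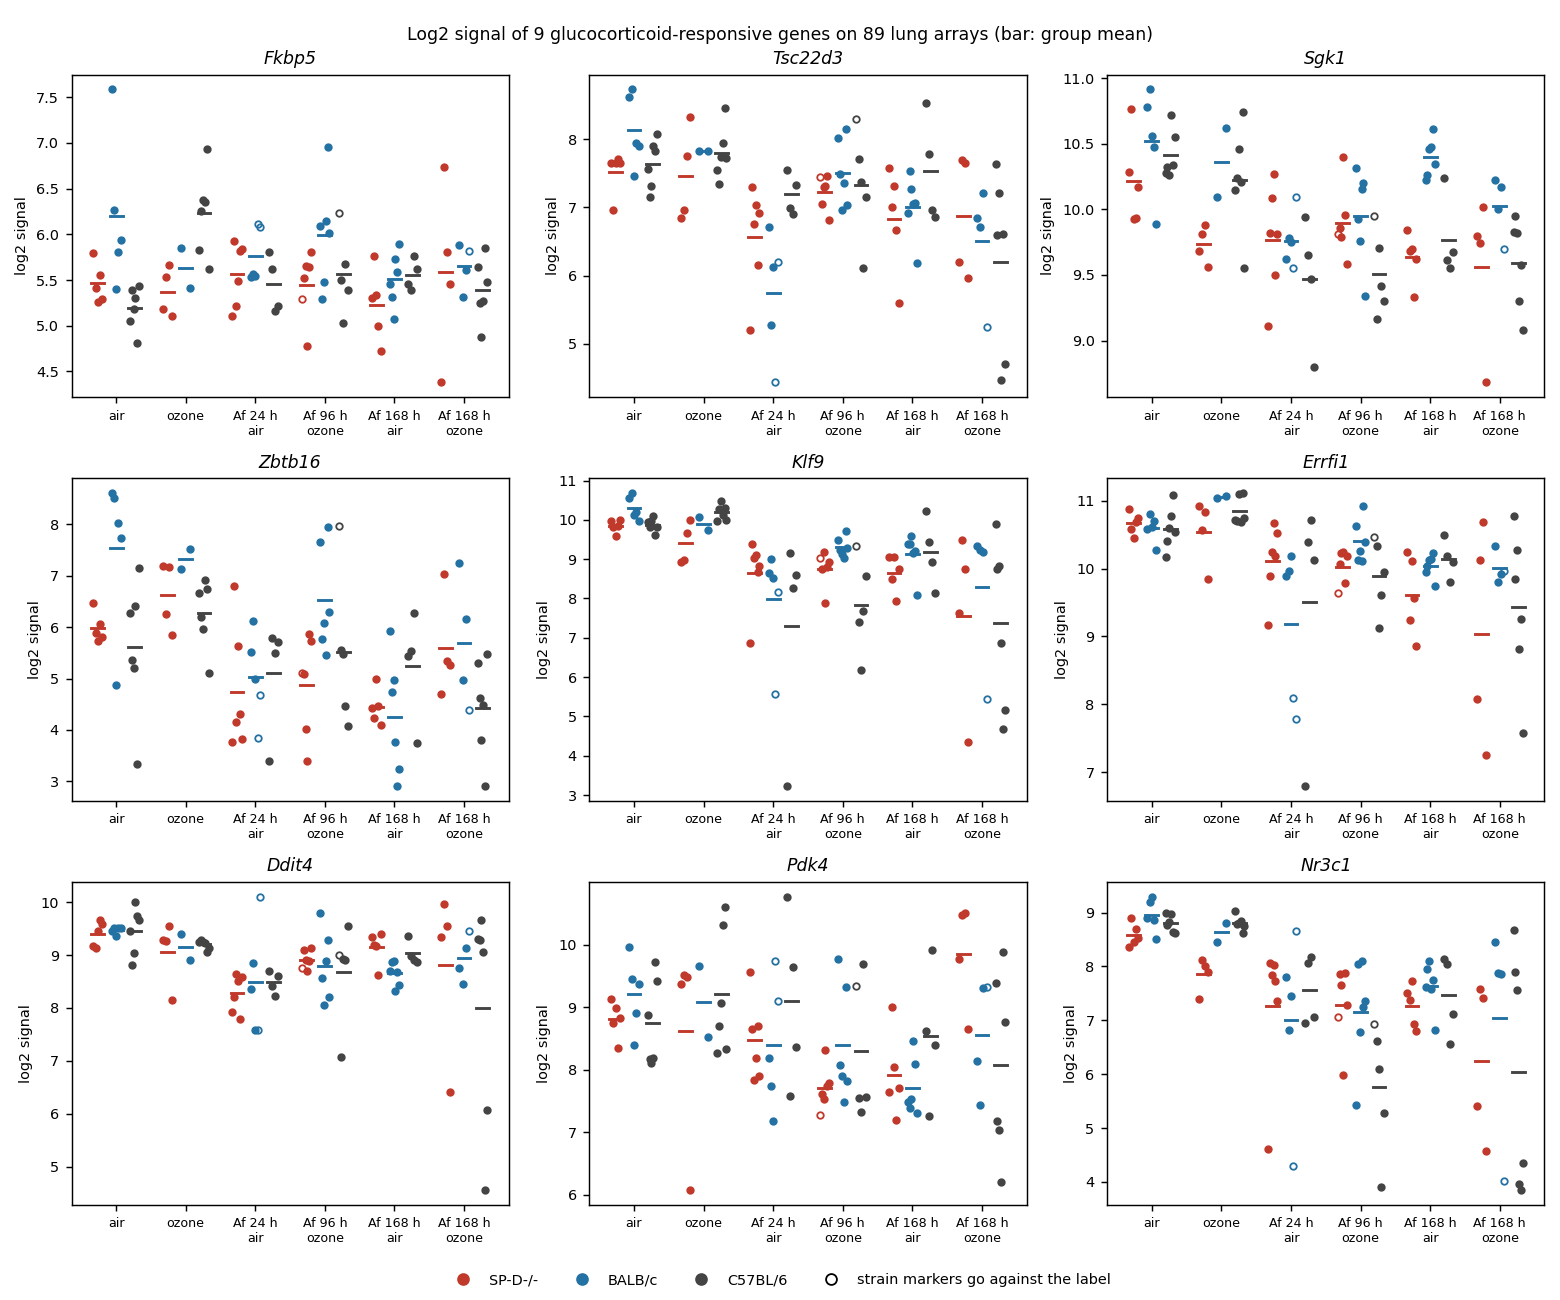
Log2 signal (y axis) of each of the 9 genes on each of the 89 arrays (points) by exposure (x axis) and strain (colour), with bars at the group means. Open points are the 5 arrays on which Sftpd or the strain genes went against the label. Nr3c1 lies between 8.37 and 9.29 on all air arrays, and single arrays after Af reach down to 3.85.

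The first comparison asked how the genes stood 24 h after an Af challenge, and most of the calls were in BALB/c lungs. There, 6 of the 9 genes were lower in Af 24 h lungs than in air lungs by limma's moderated test with Benjamini-Hochberg adjustment over all 15065 genes (a call here means adjusted p under 0.05): Tsc22d3, Sgk1, Zbtb16, Klf9, Errfi1 and Nr3c1. Of all genes, 12.1% were called in this comparison, 8.13% as lower. All 9 members lay below their air mean, with a median log2 change of -1.41, beside -0.01 over all genes. In a mixture such as this lobe, fewer cells of a type and less RNA per cell cannot be told apart. Here and below, whether the arrays of groups overlap is a description only, since the share of all genes without overlap was not counted.

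Tsc22d3 (GILZ) had the lowest adjusted p of the 6. It read 6.71, 5.28, 6.13, 4.43 and 6.20 on the 5 BALB/c Af 24 h arrays, against 8.63, 8.74, 7.46, 7.94 and 7.91 on the 5 air arrays. Every Af array lay below every air array. The means were 5.75 ± 0.90 after Af and 8.13 ± 0.54 in air (SD, n = 5 each), a log2 change of -2.38 ± 0.43 (SE, adjusted p = 9.83e-05), or 5.22-fold lower. The call held in each of the 10 fits that left out 1 array.

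Zbtb16 (PLZF) read 5.52, 6.11, 5.0, 3.84 and 4.69 on the BALB/c Af 24 h arrays, against 8.61, 8.51, 4.87, 8.03 and 7.74 on the air arrays. Air replicate 3 stood alone among its group and lay within the Af range, so the groups overlapped. The log2 change was -2.52 ± 0.65 (SE, adjusted p = 0.00613), 5.73-fold lower. Sgk1 read 9.62, 9.78, 9.75, 9.55 and 10.10 after Af, against 10.78, 10.91, 10.56, 10.48 and 9.89 in air. Replicate 6 in air, at 9.89, and Af replicate 5, at 10.10, were the arrays that overlapped. Its log2 change was -0.76 ± 0.22 (SE, adjusted p = 0.0135).

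Klf9 read 8.64, 9.0, 8.53, 5.58 and 8.16 on the BALB/c Af 24 h arrays, against 10.56, 10.68, 10.13, 10.19 and 9.96 on the air arrays. The groups did not overlap, and Af replicate 4 lay far below the others. The log2 change was -2.33 ± 0.72 (SE, adjusted p = 0.0238). Errfi1 read 9.89, 9.96, 10.19, 8.09 and 7.79 after Af, against 10.58, 10.80, 10.62, 10.70 and 10.28 in air. The groups did not overlap here either, and the lowest 2 arrays were replicates 4 and 5, which did not pass the label check, replicate 5 on Sftpd alone. Its log2 change was -1.41 ± 0.45 (SE, adjusted p = 0.0277). Nr3c1 read 7.80, 6.82, 7.46, 4.29 and 8.66 after Af, against 8.90, 9.20, 9.29, 8.87 and 8.51 in air. Af replicate 5 lay above the lowest air array, and replicate 4 was the lowest. The log2 change was -1.95 ± 0.66 (SE, adjusted p = 0.0412).

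Several of these calls rested on single arrays. Without the 5 arrays above, Tsc22d3 and Sgk1 kept their calls in BALB/c lungs, while the log2 changes of the others were -2.01 for Zbtb16 (adjusted p = 0.0914), -1.58 for Klf9 (0.258), -0.58 for Errfi1 (0.628) and -1.60 for Nr3c1 (0.173). Leaving out 1 array ended the call of Nr3c1 for air replicates 1 to 4 and Af replicates 2 and 4 (adjusted p between 0.0615 and 0.297). The same was true of Errfi1 for air replicates 2, 3 and 4 and Af replicates 4 and 5 (0.054 to 0.142), of Klf9 for air replicate 2 (0.0574) and Af replicate 4 (0.165), and of Sgk1 for air replicate 2 (0.0581). With only the BALB/c Af 24 h and air arrays in the fit, Tsc22d3 and Klf9 were called, and Zbtb16 (adjusted p = 0.0586), Sgk1 (0.082), Errfi1 (0.106) and Nr3c1 (0.11) were not. Cyclic loess between arrays ended the call of Sgk1 (-0.53, 0.0975), and the mean of all probe sets that of Nr3c1 (-0.45, 0.132).

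In C57BL/6 lungs, Sgk1 and Klf9 fell 24 h after Af, 2 of the 9 genes, beside 16.2% of all genes called and 9.78% called as lower. Sgk1 read 9.94, 9.65, 9.47 and 8.80 on the 4 Af 24 h arrays, against 10.26, 10.33 and 10.72 as the lowest, median and highest of the 6 air arrays. The groups did not overlap, and the log2 change was -0.95 ± 0.22 (SE, adjusted p = 0.00253). Klf9 read 3.23, 9.15, 8.26 and 8.60 after Af, against 9.61, 9.89 and 10.09 as the lowest, median and highest in air. All 4 Af arrays lay below air, but replicate 1 alone was at 3.23. The log2 change of -2.57 ± 0.73 (SE, adjusted p = 0.0126) became -1.21 without it (adjusted p = 0.339), and -0.51 with the mean of all probe sets of Klf9 (adjusted p = 0.126).

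The receptor gene was not called in C57BL/6 lungs, although its arrays did not overlap between the groups. Nr3c1 read 6.96, 8.06, 8.18 and 7.06 on the Af 24 h arrays, against 8.63, 8.80 and 9.0 as the lowest, median and highest in air (log2 change -1.24 ± 0.68, SE, adjusted p = 0.186). Ddit4 likewise did not overlap (-0.96 ± 0.51, adjusted p = 0.171). Errfi1, at -1.09 ± 0.46 (SE, adjusted p = 0.0854), was called without Af replicate 3 (-1.38, 0.0323) or replicate 4 (-1.49, 0.0384). Fkbp5 and Pdk4 lay above their air means, by 0.26 and 0.35, and neither passed. The median of the 9 genes was -0.95. With the mean of all its probe sets, Nr3c1 was called (-0.67, adjusted p = 0.0208). Its second brightest probe set was called too, at -2.415 (adjusted p = 0.00845). With only the C57BL/6 Af 24 h and air arrays in the fit, Nr3c1 (adjusted p = 0.0157), Ddit4 (0.0323) and Sgk1 (0.026) were called and Klf9 was not. The share of all genes called in that smaller fit is not given here.

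In SP-D-/- lungs none of the 9 genes passed limma's test at 24 h, beside 4.71% of all genes, although 5 had an unadjusted p under 0.05 and the median change was -0.97. These 5 were Tsc22d3 (-0.97 ± 0.41), Sgk1 (-0.45 ± 0.21), Zbtb16 (-1.24 ± 0.62), Ddit4 (-1.13 ± 0.48) and Nr3c1 (-1.32 ± 0.64, all log2 change ± SE), with adjusted p between 0.175 and 0.274. Ddit4 read 7.79, 8.36 and 8.65 as the lowest, median and highest of the 6 SP-D-/- Af 24 h arrays, against 9.17, 9.13, 9.46, 9.67 and 9.59 on the 5 air arrays. The groups did not overlap. Nr3c1 read 4.62, 7.79 and 8.06 as the lowest, median and highest after Af, against 8.37, 8.90, 8.45, 8.70 and 8.53 in air. These did not overlap, and replicate 1 stood far below the other Af arrays. Klf9 did not overlap either, at -1.21 ± 0.69 (SE, adjusted p = 0.344).

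**Figure D2:**
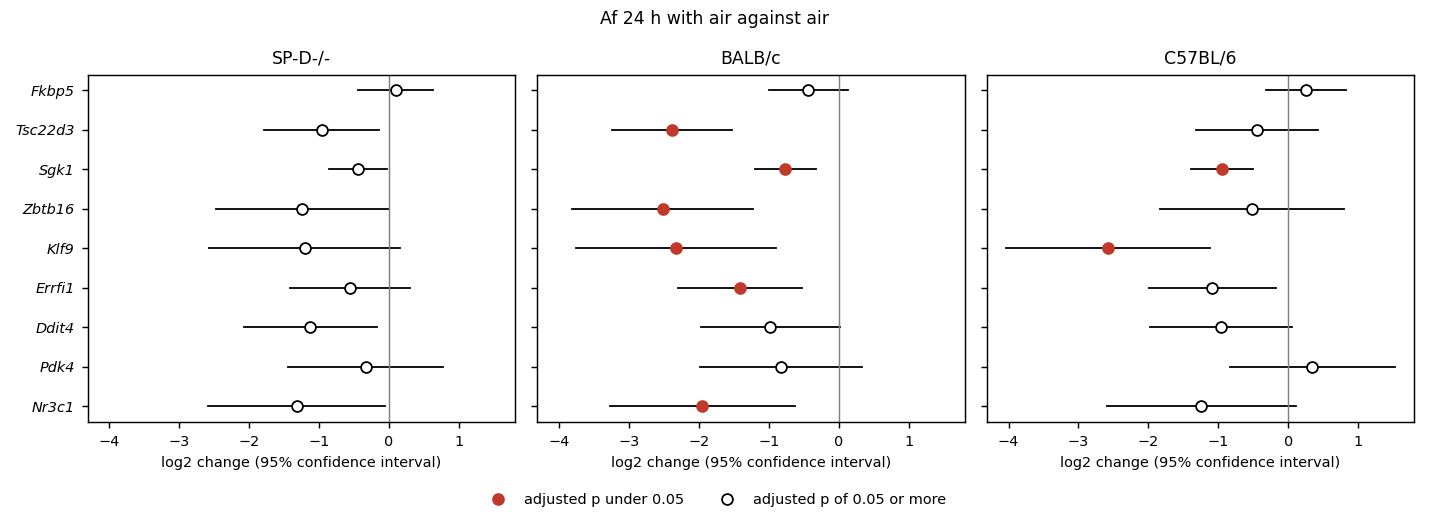
Log2 change (x axis) of each of the 9 genes (y axis) in Af 24 h lungs against air lungs of the same strain, with 95% confidence intervals from the fit over all 89 arrays and filled points for adjusted p under 0.05. The filled points are 6 genes in BALB/c and 2 in C57BL/6, all below 0, and none in SP-D-/-.

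No difference between strains in the Af 24 h response was called for any of the 9 genes by limma. In BALB/c minus C57BL/6, 0.0133% of all genes were called and 2 members had an unadjusted p under 0.05. These were Tsc22d3, at -1.94 (unadjusted p = 0.0022), and Zbtb16, at -2.0 (0.0343), both with an adjusted p of 1. In SP-D-/- minus C57BL/6, no member reached an unadjusted p of 0.05 and the median difference was -0.16. A call in BALB/c that is missing in another strain therefore does not show that the strains differ. These comparisons of each strain share no arrays, whereas Af 24 h and Af 168 h below share their air arrays.

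Other genes of glucocorticoid biology were read from 4 lists, and their changes at 24 h went in both directions. Of 18 other glucocorticoid-induced genes tested, 6 were lower and 1 higher in BALB/c Af 24 h lungs (median log2 change -0.78). Sult1a1, a sulfotransferase, changed by -2.98 ± 0.56, Klf15, a Kruppel-like factor, by -2.24 ± 0.36, and Per1, a clock repressor, by -1.22 ± 0.41. Mertk, a receptor for the uptake of dying cells, changed by -1.12 ± 0.35. The gene that was higher was Mt1, a metallothionein, at 0.99 ± 0.31, named after its value was seen. In C57BL/6 and SP-D-/- lungs, 1 gene of this list was higher and 1 lower. Cebpb, an inflammatory transcription factor, was higher by 1.56 in C57BL/6 and by 1.35 in SP-D-/- lungs, and Sult1a1 changed by -1.65 in C57BL/6 and -2.05 in SP-D-/- lungs. The medians of the list were 0.15 in C57BL/6 and -0.05 in SP-D-/- lungs.

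Genes around the receptor moved at the same time. Nr3c2, the mineralocorticoid receptor, fell in Af 24 h lungs of every strain, with log2 changes of -1.12 ± 0.30 in SP-D-/-, -1.28 ± 0.31 in BALB/c and -1.15 ± 0.32 in C57BL/6 lungs (± SE, adjusted p between 0.00346 and 0.014). Hsd11b1, which regenerates active corticosterone, changed by -2.24 ± 0.59 in BALB/c lungs (adjusted p = 0.00777). Hsd11b2, which inactivates the hormone, rose by 1.09 ± 0.27 in C57BL/6 lungs (adjusted p = 0.00389). Ncoa1, a coactivator of the receptor, changed by -2.08 ± 0.52 there (adjusted p = 0.00442). Of the 8 genes of this list tested, 1 was called in SP-D-/-, 2 in BALB/c and 3 in C57BL/6 lungs.

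Genes that glucocorticoids repress, cytokines and chemokines in the main, were higher at 24 h wherever they passed the test. Of 9 tested, 3 rose in SP-D-/-, 4 in BALB/c and 5 in C57BL/6 lungs, and none fell (median log2 changes 0.29, 0.31 and 0.61). Cxcl10, a chemokine of T cells, rose by 2.17 ± 0.35 in SP-D-/-, 1.38 ± 0.36 in BALB/c and 2.25 ± 0.37 in C57BL/6 lungs. Ccl2, a chemokine of monocytes, rose by 1.40, 2.36 and 1.45, and the cytokine gene Il6 by 1.75, 1.53 and 1.93, in the same order of strains. Of 9 clock genes, 2 fell in SP-D-/- lungs, 5 in BALB/c and 1 in C57BL/6, and none rose. Per2, a clock repressor, changed by -1.90 in SP-D-/- and -2.48 in BALB/c lungs, and Dbp, a clock output gene, by -2.18 in BALB/c lungs.

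Markers of other cells and the actin difference moved with the members at 24 h. The actin difference was 2.54 ± 0.29 in SP-D-/- Af 24 h lungs, against 1.88 ± 0.17 in air (exact permutation test, p = 0.00433, adjusted 0.0286). It was 2.84 ± 0.54 after Af and 1.59 ± 0.16 in air in C57BL/6 lungs (exact permutation p = 0.00476, adjusted 0.0286), and neither of these pairs overlapped. In BALB/c lungs it was 2.64 ± 1.15 and 1.71 ± 0.36, with overlap (exact permutation p = 0.127). The mean of 4 club cell markers ranged from 9.33 to 11.21 in SP-D-/- Af 24 h lungs, against 11.80 to 11.98 in air, from 6.13 to 10.14 against 11.11 to 11.61 in BALB/c lungs, and from 8.78 to 11.45 against 11.50 to 11.89 in C57BL/6 lungs. Of the 4, 3 genes fell in SP-D-/-, 4 in BALB/c and 3 in C57BL/6 lungs. The mean of 5 cardiac muscle markers ranged from 4.74 to 8.29 in SP-D-/- Af 24 h lungs, against 8.58 to 9.03 in air, and from 5.40 to 7.71 against 8.57 to 9.23 in C57BL/6 lungs. Endothelial markers (5 genes) ranged from 5.71 to 8.68 in BALB/c Af 24 h lungs, against 8.79 to 9.29 in air. Log2 signals have no zero, so absence of a marker cannot be read from them. The part of these measures in the members' changes was tested only for the actin difference and the spike level: with the actin difference as a covariate, no member was called in C57BL/6 and 2 in BALB/c lungs, Tsc22d3 and Zbtb16. With the spike level as a covariate both C57BL/6 calls held, and 4 members were called in BALB/c lungs, without Errfi1 (-1.20, adjusted p = 0.0557) and Nr3c1 (-1.39, 0.0812).

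At 168 h after Af, with air, 1 gene was called in 1 strain by the fit over all arrays. Zbtb16 fell in BALB/c lungs, where 1.56% of all genes were called and 0.75% as lower. It read 2.91, 4.25 and 5.92 as the lowest, median and highest of the 6 Af 168 h arrays, against 8.61, 8.51, 4.87, 8.03 and 7.74 on the 5 air arrays. Air replicate 3 was again the array within the Af range. The means were 4.26 ± 1.14 (SD, n = 6) and 7.55 ± 1.54 (SD, n = 5), a log2 change of -3.29 ± 0.62 (SE, adjusted p = 0.00093), 9.79-fold lower. The Af mean lay below 4.448, the level of the filter on low signals, so the size of this fold change is uncertain. The call held in all 11 fits that left out 1 array, with changes between -3.96 and -3.02, and in all 10 alternative settings. A second Zbtb16 probe set changed by -0.92 (adjusted p = 0.0161). All 9 members lay below their air means in BALB/c lungs, with a median of -1.13 beside -0.03 over all genes, and 5 had an unadjusted p under 0.05. With only the BALB/c Af 168 h and air arrays in the fit, 7 members were called, Zbtb16 and, at adjusted p between 0.00966 and 0.0447, Tsc22d3, Klf9, Errfi1, Ddit4, Pdk4 and Nr3c1. The share of all genes called in that smaller fit is not given here, so the count is not read as particular to the members.

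Skeletal muscle markers also differed between these BALB/c groups. The mean of the 8 markers ranged from 4.12 to 4.50 in BALB/c Af 168 h lungs, against 4.77 to 10.76 in air, and all 8 genes were called as lower. On air replicates 1, 2, 3, 4 and 6 the muscle mean was 6.28, 4.77, 9.24, 9.33 and 10.76, and Zbtb16 read 8.61, 8.51, 4.87, 8.03 and 7.74. Over the deviations of all 89 arrays from their group means, the muscle mean and Zbtb16 had r = -0.02 and rho = -0.04 (permutation p adjusted over 54 relations, 0.945 and 0.78), and r = 0.00 without the 2 arrays farthest out. These deviations leave out the difference between groups, and the part of muscle in the Zbtb16 change was not tested. The mean of 5 cardiac markers was 6.56 ± 0.97 after Af and 8.79 ± 0.36 in air.

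In the other strains no member was called at 168 h by limma, beside 1.35% of all genes in each. In SP-D-/- lungs all 9 members were below their air means (median -0.89), and 3 had an unadjusted p under 0.05: Sgk1 (-0.58), Zbtb16 (-1.54) and Errfi1 (-1.07). Zbtb16 read 4.44, 4.24, 5.0, 4.46 and 4.10 on the SP-D-/- Af 168 h arrays, against 6.46, 5.89, 5.73, 6.06 and 5.81 in air, with no overlap and an adjusted p of 0.229. With only the groups of the comparison in the fit it was called (adjusted p = 0.0172), as were Klf9 (0.0354) and Nr3c1 (0.0239). In C57BL/6 lungs the median was -0.42, and only Sgk1 had an unadjusted p under 0.05. It read 10.24, 9.61, 9.55 and 9.67 at 168 h, all below the lowest air array at 10.26, with a change of -0.64 ± 0.22 (SE, adjusted p = 0.129). Without Af replicate 2 it was -0.80 (adjusted p = 0.0469). With only the C57BL/6 Af 168 h and air arrays in the fit, Sgk1 (adjusted p = 0.0267) and Nr3c1 (0.0121) were called. For these smaller fits too, the share of all genes called is not given here. In limma's fit over all arrays, Nr3c1 was called in no strain at 168 h (adjusted p between 0.316 and 0.43). Its log2 changes were -1.32 in SP-D-/-, -1.32 in BALB/c and -1.34 in C57BL/6 lungs. That fit takes 1 residual spread per gene from all 18 groups, and the pooled within-group SD of Nr3c1 was 1.08. In the air and Af 168 h air groups compared here, its SD lay between 0.16 and 0.76. Its arrays did not overlap with air in any strain, but how many of all genes separated in this way was not counted. In the differences of responses at 168 h limma called no member, and SP-D-/- minus C57BL/6 (0.00664% of all genes called) held 0 members with an unadjusted p under 0.05 and BALB/c minus C57BL/6 (0 genes called) held 2.

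Set against 24 h, the 168 h lungs gave no member call by limma, and 0 members in SP-D-/-, 2 in BALB/c and 1 in C57BL/6 lungs had an unadjusted p under 0.05, beside 1.36% of all genes in SP-D-/-, 4.36% in BALB/c and 0.186% in C57BL/6 lungs. Tsc22d3 was higher at 168 h in BALB/c lungs by 1.26 (adjusted p = 0.0616), with values of 6.19, 7.06 and 7.53 as the lowest, median and highest at 168 h. Sgk1 was higher there by 0.64 (adjusted p = 0.0621). Its 6 arrays at 168 h, between 10.22 and 10.61, all lay above the 5 at 24 h, between 9.55 and 10.10. Both genes were called with the replicate number as a block, by 1.35 (adjusted p = 0.0256) and 0.70 (0.0179), and with either array measure as a covariate. Tsc22d3 was also called without Af 24 h replicate 1 (adjusted p = 0.0285) or Af 168 h replicate 6 (0.0473).

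Another comparison asked what Af followed by ozone at 96 h added to ozone alone, and among the 9 genes the receptor gene gave the largest change. In C57BL/6 lungs 4 of the 9 genes fell, Nr3c1, Klf9, Sgk1 and Fkbp5, beside 36.4% of all genes called and 19.2% called as lower. The median change of the 9 genes was -0.76 on the log2 scale and all 9 lay below their ozone means.

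Nr3c1 read 6.94, 6.62, 6.09, 3.91 and 5.28 on the 5 C57BL/6 Af 96 h arrays, against 8.63, 8.80 and 9.03 as the lowest, median and highest of the 6 ozone arrays. Every Af array lay below every ozone array, and the Af arrays were far more spread. The means were 5.77 ± 1.21 (SD, n = 5) and 8.81 ± 0.13 (SD, n = 6), a log2 change of -3.04 ± 0.64 (SE, adjusted p = 0.000214), 8.21-fold lower. Klf9 read 9.34, 7.40, 6.18, 7.68 and 8.58 after Af, against 9.97, 10.19 and 10.49 as the lowest, median and highest with ozone alone. These did not overlap either (-2.35 ± 0.69, SE, adjusted p = 0.0063). Both calls held in all 11 fits that left out 1 array.

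Sgk1 read 9.95, 9.16, 9.71, 9.41 and 9.30 on the C57BL/6 Af 96 h arrays, against 9.55, 10.23 and 10.74 as the lowest, median and highest with ozone alone. Ozone replicate 6 was the low array that made the groups overlap. The change was -0.72 ± 0.21 (SE, adjusted p = 0.00599). Fkbp5 read 6.23, 5.50, 5.03, 5.68 and 5.39 after Af, against 5.62, 6.30 and 6.93 with ozone alone. Its change of -0.66 ± 0.27 (SE, adjusted p = 0.0465) lost the call without any 1 of Af replicates 2, 3, 4 and 6 and ozone replicates 2, 3, 4 and 5 (adjusted p between 0.0596 and 0.147). A second Fkbp5 probe set moved the other way, by 1.06 (adjusted p = 0.00125). With the replicate block the change was -0.62 (adjusted p = 0.0611). Errfi1, which inhibits the EGF receptor, did not overlap between the groups either, at -0.95 ± 0.43 (SE, adjusted p = 0.0725), and it was called without the 5 arrays that did not pass the label check (-1.09, 0.0387).

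**Figure D3:**
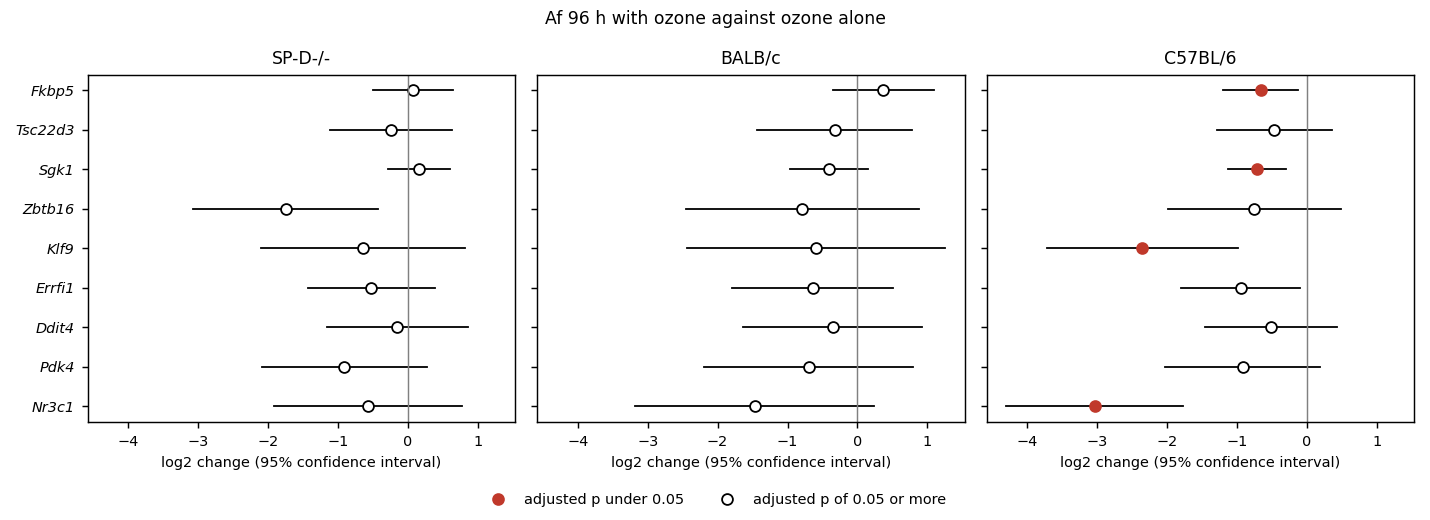
Log2 change (x axis) of each of the 9 genes (y axis) in Af 96 h lungs with ozone against lungs with ozone alone of the same strain, with 95% confidence intervals from the fit over all 89 arrays and filled points for adjusted p under 0.05. The 4 filled points are in C57BL/6, with Nr3c1 at -3.04 the farthest from 0.

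No member was called in the other strains at 96 h by limma, and 1 member in SP-D-/- and 0 in BALB/c lungs had an unadjusted p under 0.05, beside 2.58% of all genes in SP-D-/- lungs and 0.0531% in BALB/c lungs, which had only 2 ozone arrays. The 1 member was Zbtb16, which read 3.39, 5.10 and 5.86 as the lowest, median and highest of the 6 Af arrays, against 7.20, 6.25, 7.18 and 5.84 on the 4 ozone arrays (-1.75 ± 0.66, SE, adjusted p = 0.133). SP-D-/- Sgk1 lay 0.16 above and Fkbp5 0.08 above their ozone means. The medians of the 9 genes were -0.52 in SP-D-/- and -0.59 in BALB/c lungs.

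The response of SP-D-/- lungs was called as different from that of C57BL/6 lungs for many genes, among them Sgk1 and Nr3c1 of the 9 members. In this difference of responses 27.4% of all genes were called, 16.8% as higher in SP-D-/-. Sgk1 differed by 0.88 ± 0.30 (SE, adjusted p = 0.0274), since it changed by 0.16 in SP-D-/- and by -0.72 in C57BL/6 lungs. Nr3c1 differed by 2.47 ± 0.93 (SE, adjusted p = 0.0403), from changes of -0.57 in SP-D-/- and -3.04 in C57BL/6 lungs. It read 5.99, 7.47 and 7.88 as the lowest, median and highest of the SP-D-/- Af 96 h arrays, against 7.40, 8.11, 8.02 and 7.90 with ozone alone. The ozone groups of the strains were apart as well, since Nr3c1 averaged 7.86 ± 0.32 in SP-D-/- ozone lungs (SD, n = 4) and 8.81 ± 0.13 in C57BL/6 ozone lungs (SD, n = 6).

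Neither call of this difference was kept once array measures entered the fit. With the spike level as a covariate, the difference was 0.83 for Sgk1 (adjusted p = 0.336) and 0.36 for Nr3c1 (0.927), and with the actin difference it was 0.56 (0.221) and 1.19 (0.363). Without the 5 arrays both calls held. Leaving out C57BL/6 Af 96 h replicate 2 or SP-D-/- ozone replicates 2 or 5 ended the call of Sgk1 (adjusted p between 0.0516 and 0.0734). For Nr3c1, 10 of the 21 arrays did so: SP-D-/- Af 96 h replicates 2, 3 and 5, SP-D-/- ozone replicates 2 and 5, C57BL/6 Af 96 h replicates 4 and 6, and C57BL/6 ozone replicates 1, 3 and 4 (adjusted p between 0.0517 and 0.102, differences between 2.00 and 2.48). In the direct comparison of strains at 96 h, Nr3c1 was 1.52 higher in SP-D-/- than in C57BL/6 lungs (adjusted p = 0.0802), and it was called without the 5 arrays (adjusted p = 0.026), without C57BL/6 replicate 1 (1.81, 0.0486) or without SP-D-/- replicate 4 (1.78, 0.0464). Of all genes, 16.2% were called there.

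Many other genes of glucocorticoid biology were lower in C57BL/6 Af 96 h lungs. Of the 18 other induced genes, 9 fell and 2 rose (median -0.95). Tgm2, transglutaminase 2, changed by -2.38 ± 0.52, Sult1a1 by -1.70 ± 0.54 and Angptl4, an inhibitor of lipoprotein lipase, by -1.39 ± 0.43. Cebpb rose by 1.80 ± 0.32, and Mt1, the other gene that rose, was named after its value was seen, at 1.01 ± 0.29. In SP-D-/- lungs only Cebpb of this list was called, higher by 1.23 ± 0.34, and in BALB/c lungs none was. The steroid enzyme Hsd11b1 averaged 7.08 ± 0.59 in C57BL/6 Af 96 h lungs (SD, n = 5) and 10.26 ± 0.27 with ozone alone (SD, n = 6), a change of -3.18 ± 0.57 (SE, adjusted p = 1.99e-05). Its difference of responses, SP-D-/- minus C57BL/6, was 3.30 ± 0.83 (adjusted p = 0.00536). Nr3c2 and Ncoa1 changed by -1.30 and -1.97 in C57BL/6 lungs, and Hsd11b2 rose by 0.83. Among 9 repressed genes, Icam1, an adhesion molecule, was the 1 called, at -1.40 ± 0.48. Of 9 clock genes, Per2 (-1.88), Arntl (-1.36) and Dbp (-1.09) fell and Npas2 rose by 1.53.

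The same C57BL/6 groups differed in array measures and in endothelial markers. The actin difference was 2.87 ± 0.29 in Af 96 h lungs and 1.72 ± 0.19 with ozone alone, without overlap (exact permutation p = 0.00216, adjusted 0.0286). The spike level was 11.80 ± 0.28 and 10.19 ± 0.79 (exact permutation p = 0.00866, adjusted 0.13). The mean of 5 endothelial markers ranged from 5.59 to 7.10 after Af, against 8.43 to 9.04 with ozone alone, and all 5 genes fell. In SP-D-/- lungs the actin difference was 2.70 ± 0.50 and 2.75 ± 0.39, and the endothelial mean 8.43 ± 0.24 and 8.66 ± 0.16, with overlap in both. With the actin difference as a covariate, Nr3c1 was the 1 member still called in C57BL/6 lungs, and with the spike level Sgk1 and Pdk4 were (Pdk4 at -1.66, adjusted p = 0.0391). With the spike level, Nr3c1 was -1.53 (adjusted p = 0.0523) and Klf9 -0.90 (0.394). With both measures and without the 5 arrays, none of the 9 was called.

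**Figure D4:**
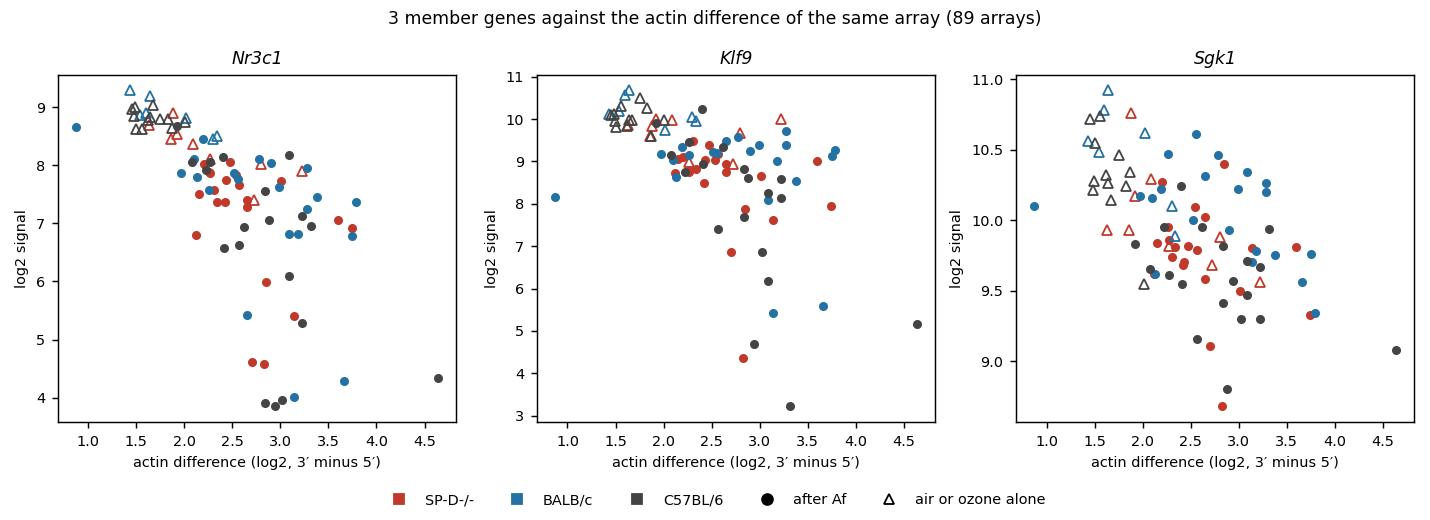
Log2 signal of Nr3c1, Klf9 and Sgk1 (y axis) against the actin difference of the same array (x axis, log2, 3′ minus 5′), 1 point per array, with colour for strain, circles after Af and triangles for air or ozone alone. Within groups, r with the actin difference was -0.53 for Nr3c1, -0.43 for Klf9 and -0.43 for Sgk1 over 89 arrays.

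Ozone alone, 12 h after exposure, gave no call for any of the 9 genes in any strain by limma, and 1 member in SP-D-/-, 0 in BALB/c and 1 in C57BL/6 lungs had an unadjusted p under 0.05, beside 0.0996% of all genes in SP-D-/-, 0.0133% in BALB/c and 0.0266% in C57BL/6 lungs. Fkbp5 came nearest. It read 5.62, 6.30 and 6.93 as the lowest, median and highest of the 6 C57BL/6 ozone arrays, against 4.82, 5.24 and 5.44 of the 6 air arrays. All ozone arrays lay above all air arrays, with a log2 change of 1.03 ± 0.26 (SE, unadjusted p = 0.000136, adjusted p = 0.228). With only these 2 groups in the fit the adjusted p was 0.0498. Fkbp5 differed by -0.10 ± 0.30 in SP-D-/- and by -0.57 ± 0.37 in BALB/c lungs, and the difference of responses, SP-D-/- minus C57BL/6, was -1.13 ± 0.39 (unadjusted p = 0.00539, adjusted p = 0.635). In SP-D-/- lungs Sgk1 and Nr3c1 did not overlap between ozone and air. Sgk1 read 9.68, 9.81, 9.88 and 9.56 with ozone, against 10.29, 10.76, 9.93, 9.93 and 10.17 in air (-0.48 ± 0.23, adjusted p = 0.281), beside an actin difference of 2.75 ± 0.39 with ozone and 1.88 ± 0.17 in air. The medians of the 9 genes were -0.19 in SP-D-/-, -0.30 in BALB/c and 0.26 in C57BL/6 lungs.

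Ozone given 168 h after Af was set against air at the same time, and no member was called by limma, and 1 member in SP-D-/-, 1 in BALB/c and 4 in C57BL/6 lungs had an unadjusted p under 0.05, beside 0.604% of all genes in SP-D-/-, 0.0199% in BALB/c and 0.0597% in C57BL/6 lungs. The C57BL/6 ozone arrays were widely spread. Nr3c1 read 3.85, 5.95 and 8.67 as the lowest, median and highest with ozone, against 8.14, 8.05, 6.57 and 7.12 with air. Ozone replicates 4, 5 and 6 lay below every air array, at 3.96, 3.85 and 4.34, and replicate 1 above every air array. Tsc22d3 changed by -1.33 ± 0.44 (SE, adjusted p = 0.19), and without ozone replicate 1 by -1.62 (adjusted p = 0.0342). In SP-D-/- lungs Pdk4 read 9.77, 10.48, 10.50 and 8.65 with ozone, against 7.64, 9.0, 8.04, 7.19 and 7.70 with air, a change of 1.93 ± 0.62 (SE, adjusted p = 0.103). Pdk4 is abundant in striated muscle, and the mean of the 8 skeletal muscle markers was 8.31 ± 1.46 in these ozone lungs and 4.57 ± 0.15 with air, without overlap. Of the 8, 3 were called as higher. On ozone replicates 1, 3, 4 and 6, the order of the Pdk4 values above, the muscle means were 7.00, 9.77, 7.12 and 9.38. The means of the fat markers were 4.81, 6.22, 5.98 and 3.92 in that order, and those of the cardiac markers 9.17, 8.89, 8.78 and 5.26. Over the deviations of all 89 arrays from their group means, the muscle mean and Pdk4 had r = 0.09 and rho = 0.18 (permutation p adjusted over 54 relations, 0.647 and 0.228), and r = 0.05 without the 2 arrays farthest out. Such deviations leave out the difference between groups, and the part of other tissue in the Pdk4 change was not tested. The effect of ozone at 168 h in SP-D-/- minus C57BL/6 lungs was called by limma for no member, 3 of which had an unadjusted p under 0.05, beside 0.0398% of all genes. In BALB/c minus C57BL/6 lungs no gene was called, and 1 member had an unadjusted p under 0.05.

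Strains compared under the same exposure gave no member call in any of 12 comparisons by limma with the probe sets used. In each, at most 3 members had an unadjusted p under 0.05. Other probe sets, tried after seeing the data, gave limma calls at Af 96 h with ozone. The second brightest of Nr3c1 differed by 2.81 for SP-D-/- against C57BL/6 (adjusted p = 0.00291) and by 2.42 for BALB/c against C57BL/6 (0.0108). In the SP-D-/- comparison, another probe set of Fkbp5 differed by -0.98 (0.0116) and another of Tsc22d3 by -0.58 (0.0253). Between SP-D-/- and C57BL/6 lungs 0.797% of all genes were called with ozone alone, 0.0863% at Af 24 h, and 0.0199% with air and 0.504% with ozone at Af 168 h. Between BALB/c and C57BL/6 lungs it was 0.146% with ozone alone, 0.385% at Af 24 h, 6.26% at Af 96 h, and 0.597% with air and 0.139% with ozone at Af 168 h. In air, SP-D-/- and C57BL/6 lungs differed in 0.0664% of all genes, and the median difference of the 9 genes was -0.03. BALB/c and C57BL/6 air lungs differed in 0.511% of all genes. Fkbp5 read 7.59, 6.26, 5.41, 5.80 and 5.94 in BALB/c air lungs, against 4.82, 5.24 and 5.44 as the lowest, median and highest in C57BL/6 air lungs. Only BALB/c replicate 3 lay within the C57BL/6 range, and the difference was 1.00 ± 0.27 (SE, adjusted p = 0.0655). Zbtb16 was higher in BALB/c lungs by 1.93 ± 0.62 (SE, adjusted p = 0.268). Without BALB/c air replicate 3 both were called, Fkbp5 at 1.20 (adjusted p = 0.0175) and Zbtb16 at 2.60 (0.0258). The clock genes Dbp and Tef were higher in BALB/c air lungs, by 2.07 and 0.87, and Npas2 differed by -1.38, all 3 called. Skeletal muscle markers averaged 8.07 ± 2.47 in BALB/c air lungs and 5.31 ± 1.89 in C57BL/6 air lungs.

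Within groups, several of the 9 genes tended to be high or low on the same arrays. Pairs of genes outside the 9 were not examined, so the counts below have no background beside them. With each value taken as its deviation from the group mean, 33 of the 36 pairs of genes had a positive Pearson's r over the 89 arrays (median 0.29), and 17 passed a permutation test with 100000 resamples after adjustment over the 36 pairs. Klf9 and Errfi1 had r = 0.74 and Spearman's rho = 0.62 (both with a permutation p of 1e-05, the lowest possible with these resamples, adjusted 9e-05 and 0.00012), and r = 0.63 without the 2 arrays farthest out. Klf9 and Nr3c1 had r = 0.72 and rho = 0.60 (permutation p, adjusted, 9e-05 and 0.000206), with r = 0.76 without the 2 farthest. Tsc22d3 and Nr3c1 had r = 0.68 and rho = 0.56 (adjusted 9e-05 and 0.00018), with r = 0.64 without the 2 farthest. Fkbp5 and Pdk4 had r = 0.46 and rho = 0.52 (adjusted 0.000144 and 0.000206), while r with Nr3c1 was 0.06 for Fkbp5 and -0.23 for Pdk4 (adjusted 0.713 and 0.157). After removal of the spike level and the actin difference, 13 pairs passed (median r 0.19), and without the 5 arrays 13 passed (median 0.27).

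**Figure D5:**
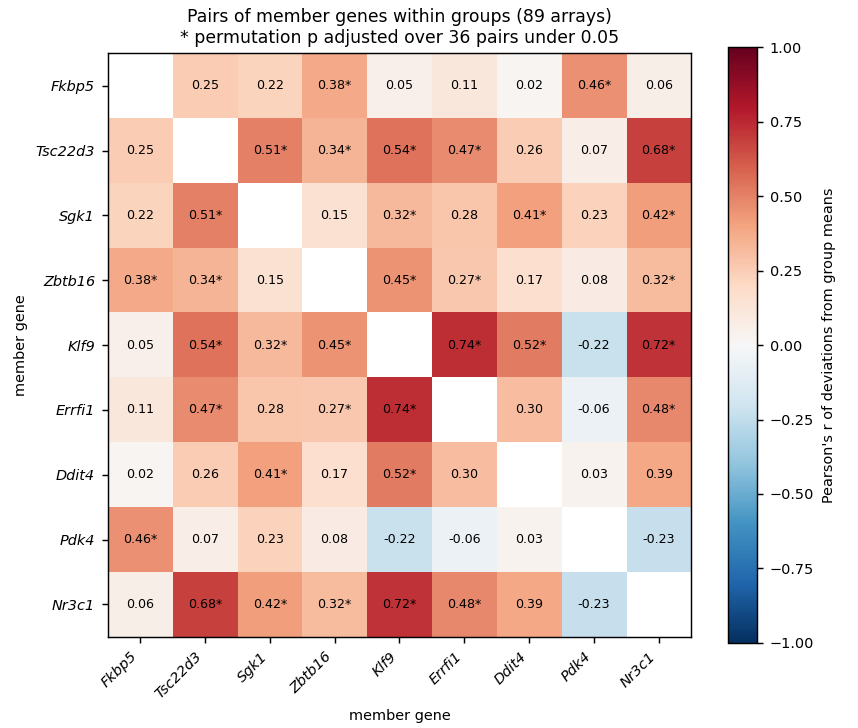
Pearson's r (colour and number) between each pair of the 9 genes (both axes), over the deviations of 89 arrays from their group means, with a star for a permutation p under 0.05 after adjustment over the 36 pairs. The highest values are those of Klf9 with Errfi1 (0.74) and with Nr3c1 (0.72), and the 3 pairs below 0 are those of Pdk4 with Klf9, Errfi1 and Nr3c1.

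The same deviations were set against the array measures and 4 of the marker lists, 54 relations in all, with permutation p adjusted over them. Nr3c1 had r = -0.61 and rho = -0.59 with the spike level (adjusted p = 0.00018 and 0.000135), and r = -0.64 without the 2 arrays farthest out. With the actin difference it had r = -0.53 and rho = -0.56 (adjusted p = 0.001 and 0.000135), and r = -0.48 without the 2 farthest. Klf9 had r = -0.54 and rho = -0.49 with the spike level (adjusted p = 0.00018 and 0.000135). Sgk1 had r = -0.04 with the spike level (adjusted p = 0.802) but r = -0.43 and rho = -0.44 with the actin difference (adjusted p = 0.000216 and 0.000756). Pdk4 ran the other way, with r = 0.34 and rho = 0.36 against the spike level (adjusted p = 0.0208 and 0.0129). The mean of the clock genes had r = 0.57 and rho = 0.43 with Nr3c1 (adjusted p = 0.000216 and 0.0018) and r = 0.58 and rho = 0.53 with Klf9 (adjusted p = 0.00018 and 0.000135). What lies behind these relations was not tested.

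The genes most like each member over the 18 group means were named by Pearson's r as a description. Nr3c1 was most like Stt3b, Dpysl2 and Vcl (r = 0.98 each). Klf9 was most like Cflar (0.97), Mprip and Ankrd46 (0.96 each), and Sgk1 most like Tlr4 (0.97), Ap5m1 and Fam118a (0.94 each). Errfi1 had Coq8a, Tns1 and Atp11a (0.95, 0.94 and 0.94), Ddit4 had Trp53inp2, Eif3f and Atp5b (0.93, 0.89 and 0.89) and Tsc22d3 had Krt80, Klhl24 and Vav2 (0.90, 0.87 and 0.86). For Pdk4 they were the muscle genes Ttn, Itgb1bp2 and Car3 (0.87, 0.86 and 0.85). Zbtb16 had Prkar2a, Gpbp1 and Coro2b (0.85, 0.83 and 0.82). Fkbp5 had the lowest values, with Pno1, Pdk3 and Wfdc5 (0.68, 0.68 and 0.65).

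Probe sets of the same gene did not always move together, which limits what a gene-level value shows. Nr3c1 has 5 probe sets. Over the 89 arrays, a second one had r = 0.69 with the one used and changed by -3.00 in C57BL/6 Af 96 h lungs against ozone alone (adjusted p = 0.000115). Another had r = -0.77 with the one used and changed by 1.17 in that comparison (adjusted p = 0.0159). Klf9 also has 5, and the second brightest (r = 0.48) changed by -1.41 there (adjusted p = 0.00247), by -1.15 in BALB/c Af 24 h lungs (adjusted p = 0.042) and by -0.53 in C57BL/6 Af 24 h lungs (adjusted p = 0.339). Of the 3 Tsc22d3 probe sets, the others changed by -0.84 (adjusted p = 0.0691) and -0.21 in BALB/c Af 24 h lungs, where the one used changed by -2.38. The second Zbtb16 probe set changed by -0.86 there (adjusted p = 0.0118). Of the 3 Fkbp5 probe sets, the second brightest was above the filter level on 86 of 89 arrays. It had r = -0.06 with the one used, so the Fkbp5 results above describe the probe set used. Sgk1, Errfi1, Ddit4 and Pdk4 have 1 probe set each.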

How the data were processed

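The deposited values are log2 signals of 45141 probe sets on 89 arrays of the HT Mouse430PM type, and every array has the same median of 4.904, as after quantile normalization. Per the labels, RNA was amplified with the NuGEN system. The summarization software is not given in the sources used here. Of the probe sets, 28898 name 1 gene, 551 several and 15692 none in the platform annotation. Each gene is its probe set with the highest mean over all arrays, and genes above the 40th percentile (4.448) on at least 4 arrays were tested.

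All 18 groups entered 1 limma fit (version 3.58.1, R 4.3.3, lmFit and eBayes) with 40 comparisons, each adjusted over 15065 genes (Benjamini-Hochberg), and a call at an adjusted p under 0.05. Array measures were compared with exact permutation tests (two-sided) and relations with permutation tests, coded with numpy 2.4.6 under Python 3.11.15. The fit was tested on simulated data. The 9 genes, the gene lists and the marker lists were chosen with earlier results of these data known. The text names all 9 genes and, from each list and comparison, up to the 4 called genes with the largest change, and the 3 genes most like each member. Alternatives were cyclic loess, the mean of all probe sets, no filter on low signals, fitting the compared groups alone, the replicate number as a block, the spike level or actin difference as a covariate, and leaving out 5 arrays or any 1 array. Added after seeing the data were both covariates without the 5 arrays, and each other probe set of a member. Same-numbered arrays deviated together in every pair in 2 of 30 comparisons only, C57BL/6 Af 168 h with ozone against air (r between 0.262 and 0.407) and BALB/c against C57BL/6 at Af 168 h with air (0.235 to 0.292), and no label says that the numbers pair animals.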

Additional observations from a re-analysis of the deposited data

Results flagged for a closer look

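Single arrays stood apart from their group, by Dixon's criterion at the 95% level, in 14 of the 153 groups of 4 to 10 arrays examined over the 9 genes (9.15%), and all 14 were low. Chance alone sets apart about 1 in 20 groups. Of Klf9, the array was at 6.87 in SP-D-/- Af 24 h replicate 1 (the others 8.66 to 9.39), 7.89 in SP-D-/- Af 96 h with ozone replicate 4 (8.75 to 9.18), 5.58 in BALB/c Af 24 h replicate 4 (8.16 to 9.0), 8.09 in BALB/c Af 168 h with air replicate 6 (9.15 to 9.59), 5.43 in BALB/c Af 168 h with ozone replicate 6 (9.19 to 9.35) and 3.23 in C57BL/6 Af 24 h replicate 1 (8.26 to 9.15). That C57BL/6 array was also low in Zbtb16, at 3.40 (5.50 to 5.79), and in Errfi1, at 6.79 (10.12 to 10.71). Nr3c1 was at 4.62 in SP-D-/- Af 24 h replicate 1 (7.36 to 8.06) and at 4.01 in BALB/c Af 168 h with ozone replicate 6 (7.86 to 8.46), arrays that were low in Klf9 too. Tsc22d3 was at 6.96 in SP-D-/- air replicate 3 (7.65 to 7.71), Zbtb16 at 4.87 in BALB/c air replicate 3 (7.74 to 8.61), Ddit4 at 7.08 in C57BL/6 Af 96 h with ozone replicate 2 (8.90 to 9.54) and Pdk4 at 6.08 in SP-D-/- ozone replicate 5 (9.38 to 9.51). Some of these arrays had the highest spike level of their group. They were SP-D-/- Af 24 h replicate 1 (12.21), Af 96 h replicate 4 (11.56) and ozone replicate 5 (12.12). The others were BALB/c Af 24 h replicate 4 (12.3), BALB/c Af 168 h with ozone replicate 6 (11.9) and C57BL/6 Af 24 h replicate 1 (12.3). The remaining arrays named here did not have it. What lies behind the low values was not tested.

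For 2 genes the responses of strains differed by a test of the difference itself, Af 96 h with ozone against ozone, SP-D-/- minus C57BL/6. Sgk1 differed by 0.88 and Nr3c1 by 2.47 on the log2 scale, beside 27.4% of all genes called in this comparison, and neither was called with the spike level or the actin difference in the fit.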

How the results depend on the processing

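Of 360 changes (9 genes in 40 comparisons), 15 were called, and 10 settings and the leaving out of each array were tried. Shares of all genes called under these settings are not given here, so the counts below describe the 9 genes alone. With only the groups compared in the fit, the number of genes called was 1 for Af 24 h against air in SP-D-/- (0 in the joint fit) and 2 in BALB/c (6), 3 at Af 168 h in SP-D-/- (0), 7 in BALB/c (1) and 2 in C57BL/6 (0), 1 for ozone in C57BL/6 (0), and 1 for SP-D-/- against C57BL/6 with ozone (0) and at Af 96 h (0). With the actin difference it was 2 at Af 24 h in BALB/c (6) and 0 in C57BL/6 (2), 2 for Af 168 h against Af 24 h in BALB/c (0), 1 at Af 96 h in C57BL/6 (4), 0 for SP-D-/- minus C57BL/6 at Af 96 h (2), and 1 for BALB/c against C57BL/6 in air (0) and at Af 96 h (0). With the spike level it was 4 at Af 24 h in BALB/c (6), 2 for Af 168 h against Af 24 h in BALB/c (0), 2 at Af 96 h in C57BL/6 (4), 0 for the SP-D-/- difference (2) and 1 for BALB/c against C57BL/6 in air (0). Without the 5 arrays it was 2 at Af 24 h in BALB/c (6) and, at Af 96 h, 1 for SP-D-/- (0) and 2 for BALB/c (0) against C57BL/6. Without them and with the spike level, it was 2 at Af 24 h in BALB/c, 1 for BALB/c against C57BL/6 in air and 0 for the SP-D-/- difference. With both covariates and without the 5 arrays, chosen after seeing the data, no gene was called at Af 24 h in BALB/c (0) or C57BL/6 (0), at Af 96 h in C57BL/6 (0) or for the SP-D-/- difference (0), 1 was called for BALB/c against C57BL/6 in air and 2 at Af 96 h, and Errfi1 at Af 24 h in BALB/c was at 0.062, against -1.41. The cause was not tested.

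With the mean of all probe sets it was 2 at Af 168 h in BALB/c (1), 2 for SP-D-/- (0) and 1 for BALB/c (0) against C57BL/6 at Af 96 h and 1 for BALB/c against C57BL/6 in air (0), Fkbp5 at Af 96 h in C57BL/6 was at 0.27, and Klf9 at Af 24 h in C57BL/6 and Nr3c1 at Af 24 h in BALB/c lost their calls. Nr3c1 at Af 24 h in C57BL/6 gained a call in this setting (-0.67, adjusted p = 0.0208). With cyclic loess Sgk1 at Af 24 h in BALB/c lost its call, and the number was 2 at Af 96 h in C57BL/6 (4) and 1 for the SP-D-/- difference (2). With the replicate number as a block, Tsc22d3 and Sgk1 were called for Af 168 h against Af 24 h in BALB/c, 2 genes (0), Fkbp5 lost its call at Af 96 h in C57BL/6, and no other call changed. Other probe sets, chosen after seeing the data, had the opposite sign for Klf9 at Af 24 h in BALB/c (0.14) and C57BL/6 (0.13, 0.10 and 0.34), for Nr3c1 at Af 24 h in BALB/c (0.86 and 0.018), at Af 96 h in C57BL/6 for Fkbp5 (1.06), Tsc22d3 (0.76), Klf9 (0.057) and Nr3c1 (1.17), and in the SP-D-/- difference for Fkbp5 (-1.37), Tsc22d3 (-0.76) and Nr3c1 (-1.36). Of these, the Klf9 probe sets averaged 4.31, 3.93 and 3.81, below the filter level of 4.448. The Nr3c1 probe set at 0.018 averaged 3.99. Such low probe sets also enter the means of all probe sets. Others gained calls with the sign of the one used: Nr3c1 at Af 24 h in C57BL/6, Klf9 at Af 168 h in BALB/c and in the SP-D-/- difference, and those named above for strains at Af 96 h. Leaving out 1 array gave 2 to 6 genes at Af 24 h in BALB/c and 1 to 3 in C57BL/6, 3 to 4 at Af 96 h in C57BL/6, 0 to 2 for the SP-D-/- difference and for BALB/c against C57BL/6 in air, and 0 to 1 for Af 168 h against air in C57BL/6, Af 168 h against Af 24 h in BALB/c, SP-D-/- against C57BL/6 at Af 96 h, and C57BL/6 Af 168 h with ozone against air. Of the 36 pairs, 15 passed after the spike level and 13 without the 5 arrays (17). Group size (2 to 6 arrays) and single low arrays limit the precision. Zbtb16 was above the filter level on 69 of 89 arrays.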
